A study of Mus musculus with 20 samples.

Results

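Transcripts of 10 effector cytokines and death ligands were followed in donor CD8+ T cells from 4 sites of mice with acute graft-versus-host disease: Ifng, Tnf, Il2, Il17a, Csf2, Lta, Il10, Fasl, Tnfsf10 and Tnfsf11. They were chosen by name as the secreted cytokines and the membrane-bound ligands of the TNF family that effector T cells can make, among 20886 genes with a named probe. Each of the 10 had 1 probe on the array. Recipients were female m-act OVA mice on the C57Bl/6 background, aged 8 to 16 weeks, whose CAG-OVA transgene makes ovalbumin. All received 11 Gy of total body irradiation, bone marrow and splenocytes from OT-I mice, whose transgenic receptor sees an ovalbumin peptide, and on day 4 the CD45.1 OT-I CD8+ T cells were taken by magnetic selection from blood, liver, lung and small intestine. Each site had 5 arrays, replicates 1 to 5, and blood was the comparator. The irradiation, the graft, both transgenes and the day were common to all 4 sites. An untreated or ungrafted group was not analysed here, so the values compare sites within the disease. No label links an array to an animal or says whether animals were pooled, so each p-value measures spread among arrays, which may be technical. Donors and recipients were both C57Bl/6 and differed in their transgenes and CD45 alleles, and no purity is given for the selected cells.

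Ifng encodes interferon gamma, the cytokine by which CD8+ effector cells activate macrophages and raise antigen presentation in the tissue around them. Tnf and Lta encode ligands that share the TNF receptors, while Fasl and Tnfsf10 (TRAIL) encode ligands that trigger apoptosis through death receptors on the target cell. Tnfsf11 encodes RANKL, the ligand of the receptor RANK, known for its part in bone resorption and lymphoid tissue formation and made by activated T cells. Il17a is the hallmark cytokine of the Th17 and Tc17 programmes and of a class of gamma delta T cells. Il2 is the T cell growth factor, Csf2 encodes GM-CSF, which acts on myeloid cells, and Il10 is an anti-inflammatory cytokine. Interferon gamma, TNF and Fas ligand have long been studied as mediators of tissue injury in graft-versus-host disease.

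Signal is given as log2 of the processed intensity minus the 75th percentile of the same array, so 0 marks a probe as bright as that percentile. The values of different ligands are not compared with each other, since probes differ in efficiency. Sums over marker genes add the signals of several probes, so the brightest probe weighs most in them. Between 22.6% and 38.7% of the probes of an array were well above background, the scanner software's test of a spot against its local background. Markers of CD8 T cell identity (Cd3e, Cd8a, Lck and others) fitted the label: 13 or 14 of 14 were well above background on every array. Some arrays stood apart from their sites. Liver 5 had a summed log2 signal of 7.53 for Paneth cell markers and 7.01 for small intestinal epithelium markers, against 0.91 to 1.23 and 1.11 to 1.50 on the other liver arrays. Small intestine 5 had 0.02 and 0.83, against 5.86 to 9.74 and 2.94 to 7.60 on the other small intestine arrays. Those 2 arrays go against their labels on these markers, and results are given with and without them where they differ. Lung 3 had 1.29 for alveolar macrophage markers, against 7.28 to 9.53 on the other lung arrays. In bulk RNA, fewer cells of a type and less RNA per cell cannot be told apart.

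Il17a and Tnfsf11 were higher in cells from the small intestine than in cells from blood, and no other comparison between sites called any of the 10 genes. Il17a stood 3.48 ± 0.93 (SE) higher and Tnfsf11 2.21 ± 0.65 higher on the log2 scale. Both calls were fragile: each was lost without any 1 of blood 4, blood 5, small intestine 1 or small intestine 2. An F-test over the 4 sites called neither gene. Ifng and Fasl were well above background on all 20 arrays and Lta on 16, with no difference between sites past the threshold. Tnf was dim, and no blood array had it well above background. Il2 and Il10 were well above background on 0 of 20 arrays, Csf2 on 2 and Tnfsf10 on 5. Testing required a probe to clear background on 4 or 5 of the arrays of some site, which kept 6 of the 10 genes (60%) and 8056 of the 20886 (38.6%). A gene that passed through 1 bright site is more likely to differ there, so the counts among the 6 are no support by themselves. Differences were tested with limma over all 20 arrays, with Benjamini-Hochberg adjustment over the 8056 genes in each of 6 comparisons and a threshold of 0.05.

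**Figure D1:**
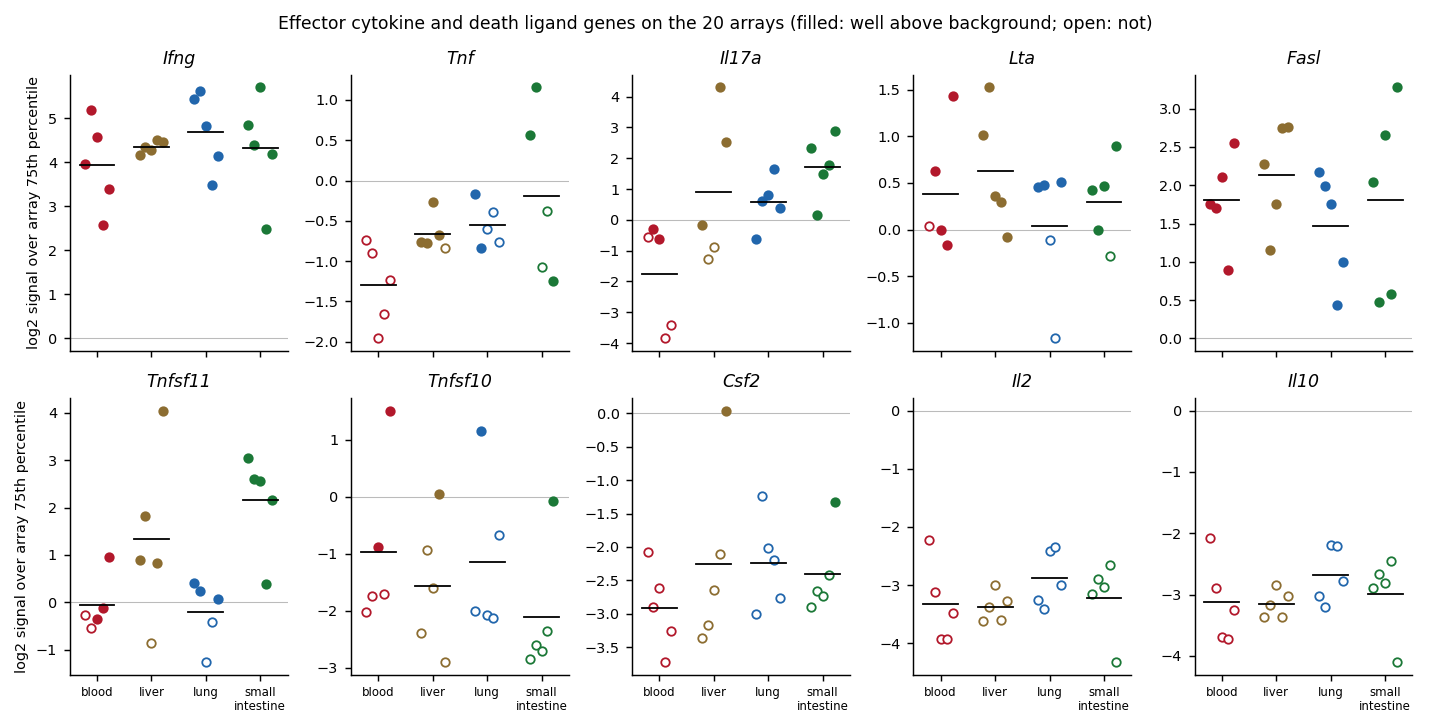
Log2 signal over the array's 75th percentile (vertical axis, its own range in each panel) for the 10 genes on each of the 20 arrays, grouped by site (horizontal axis). Points within a site run from replicate 1 on the left to 5 on the right; filled points were well above background, open points were not, and the black line is the mean of 5 arrays. All 5 small intestine values of Il17a lie above all 5 of blood, whereas Ifng and Fasl are filled on every array and overlap between all sites.

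Against blood, 2 of the 6 tested genes were called in the small intestine, both higher, beside 0.919% of all tested genes called higher there, 9.94% called lower and 10.9% in either direction. Of the 6 tested genes 0 were called in liver, where 0% of all genes were called, and 0 in lung, where 0.819% were called and 0.521% called higher. At an unadjusted p under 0.05, 2 of the 6 passed in liver (Il17a and Tnfsf11), 1 in lung (Il17a) and 3 in the small intestine (Il17a, Tnfsf11 and Tnf), beside 226, 2721 and 2641 of the 8056 genes. Between the organs 0 of 6 were called: lung against liver called 0.286% of all genes, the comparison of small intestine with liver 0% and that of small intestine with lung 0.149%. Unadjusted, Tnfsf11 alone passed between lung and each of the other organs, and none of the 6 passed between small intestine and liver. The F-test over the 4 sites called 0 of the 6 genes and 0.757% of all genes. Without liver 5 and small intestine 5, 3 of the 6 were called higher in the small intestine than in blood (Il17a, Tnfsf11 and Tnf), beside 4.7% of all genes, and the F-test called 1 of the 6 (Tnfsf11) beside 18.8%. With the slide as a block the same 3 were called higher in the small intestine, beside 1.15%. The median log2 difference of the 6 genes from blood was 0.53 in liver, 0.30 in lung and 0.75 in the small intestine, beside 0.05, -0.30 and -0.36 over all tested genes. The median of all genes shifts with the scaling: with the 75th percentile taken over only the always-bright probes (those above background on every array) it was -0.13, -0.48 and -0.32. The 3 comparisons share the blood arrays and are not independent of each other. Under that scaling 0 of the 6 genes were called in the small intestine, beside 0.236% of all genes. The 74 genes called higher and 801 called lower in the small intestine became 4 and 15.

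**Figure D2:**
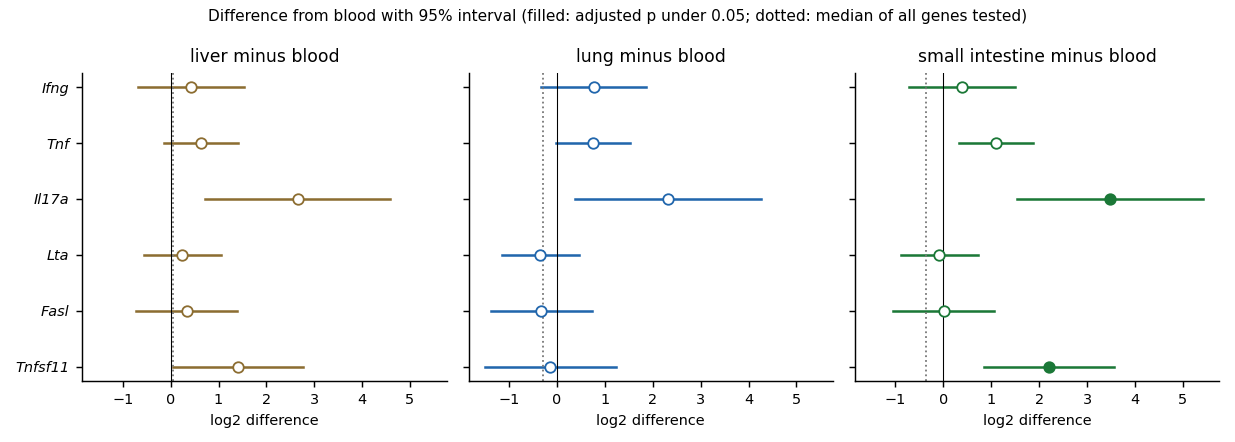
Log2 difference from blood (horizontal axis) for the 6 tested genes in liver, lung and small intestine. Points are limma estimates over 5 against 5 arrays with 95% confidence intervals, filled where the adjusted p was under 0.05, and the dotted line is the median of all 8056 genes, at 0.05, -0.30 and -0.36. The filled points are Il17a and Tnfsf11 in the small intestine.

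Il17a, the gene of interleukin 17A, was higher in the cells selected from the small intestine than in those from blood on every slide. In the small intestine the log2 signal was 2.34, 0.16, 1.48, 1.79 and 2.88 for replicates 1 to 5, all well above background. In blood it was -0.56, -0.30, -0.62, -3.85 and -3.42, and only replicates 2 and 3 were well above background. The lowest small intestine array was above the highest blood array, as held for 0.497% of all tested genes. The means were 1.73 ± 1.03 (SD, n = 5) and -1.75 ± 1.73 (SD, n = 5), and the difference of 3.48 had a 95% interval of 1.54 to 5.42 (limma, adjusted p = 0.0282). The blood mean was pulled down by replicates 4 and 5, whose signals lay below the dimmest probe well above background on their arrays, at -1.62 and -1.16. With the 3 blood values that were not well above background raised to that floor, the difference was 2.48. The call was lost without blood 4 (2.96, adjusted p = 0.0623), without blood 5 (3.06, adjusted p = 0.074) and without small intestine 1, 2 or 4 (adjusted p of 0.0589, 0.0584 and 0.0619). It also missed the threshold when dim probes were kept (adjusted p = 0.0501), with another background correction (1.85, adjusted p = 0.0517) and with the scaling on always-bright probes (adjusted p = 0.0688). Without liver 5 and small intestine 5 the difference was 3.19 (adjusted p = 0.0252).

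Liver and lung lay between those sites for Il17a. The lung arrays held -0.61, 0.62, 0.80, 1.66 and 0.39, all well above background, and lung exceeded blood by 2.32 ± 0.93 on 4 of 5 slides (limma, adjusted p = 0.124). With the 3 dim blood values raised to the floor of their arrays, the lung difference was 1.32. The liver arrays were spread widest, at -0.17, -1.27, -0.88, 4.31 and 2.52, and only replicates 1, 4 and 5 were well above background. Liver 4 had the highest Il17a signal of all 20 arrays. The liver mean of 0.90 ± 2.41 (SD, n = 5) exceeded blood by 2.65 ± 0.93 (limma, adjusted p = 0.997), and the liver SD was wider than that of 99.7% of tested genes. With 2 dim liver and 3 dim blood values raised to the floor, the liver difference was 1.73. Over all arrays the order of the means was blood, lung, liver and small intestine, and the range of each site overlapped that of the next. The order of lung and liver depended on liver 4 and on liver 5, whose gut markers go against its label. Over the alternatives lung minus liver ran from -0.87 to 0.52 and was never called. Over the 4 sites together the F-test did not pass (adjusted p = 0.0955).

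The 250 bases before the annotated start of Il17a are shown because this gene had the widest difference among the 10. They lie at chr1:20730655-20730904 on the plus strand of GRCm38.p6 and come from RefSeq. Capitals mark a TGANTCA motif, the letters that AP-1 factors such as Fos and Jun recognise, 244 bases before the start, and a TATAAA box 31 bases before it.
Il17a: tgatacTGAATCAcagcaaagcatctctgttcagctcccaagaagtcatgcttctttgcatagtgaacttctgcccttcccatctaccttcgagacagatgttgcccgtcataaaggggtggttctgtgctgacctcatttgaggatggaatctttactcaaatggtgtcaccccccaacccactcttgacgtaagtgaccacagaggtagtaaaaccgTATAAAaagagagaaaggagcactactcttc
TGANTCA occurred in 6.7% of 32851 mouse promoter windows of this length on either strand, and TATAAA in 7.6% on the gene's strand. GGAAA, the core letters that NFAT and NF-kB sites share, was searched on both strands, occurred in 55.6% of windows, and has no match in these letters. A match is a description of the sequence and not a measured site.

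Cells other than CD8 T cells also make interleukin 17A, so their markers were read beside it. Of 9 gamma delta T cell markers 4 had a probe, and of these Sox13 cleared background on no array and Il23r only on small intestine 5. Their summed log2 signal ran from -0.29 to 0.93 in blood and -0.05 to 2.18 in the small intestine, with 0.65 to 2.58 in liver and 0.41 to 1.98 in lung. The sum was highest on liver 4, lung 4 and small intestine 5, each the array with the most Il17a in its site. In blood the sum was highest on replicates 3 (0.93) and 4 (0.70), while Il17a was highest on replicate 2 and lowest on replicate 4. The brightest marker on liver 4, lung 4 and small intestine 5 was Cd163l1, at 2.42, 1.32 and 1.71. Cd163l1 was the only tested marker of the list. Its small intestine signal differed from that of blood by -0.11 ± 0.76 (limma, adjusted p = 0.915). The call for Il17a against blood stood without small intestine 5 (3.19, adjusted p = 0.0276). CD4 T cell markers, some of which CD8 T cells also express, all 8 had a probe. They summed to 4.15 to 5.28 in blood and 4.66 to 5.49 in the small intestine, with 4.01 to 5.99 in liver and 4.79 to 5.88 in lung. The brightest of them was Ctla4, with site means of 3.64 to 4.74, while Cd4 itself had -0.49 to 0.02. Innate lymphoid cell markers, some of which T cells also express, all 9 had a probe. They summed to 4.19 to 4.93 in blood and 4.35 to 5.67 in the small intestine, with 4.27 to 6.10 in liver and 4.60 to 5.96 in lung. The brightest of them was Gata3, with site means of 3.88 to 4.81. Il22 and Areg, which innate lymphoid cells also make, were not well above background on any array. The part of other cell types in the Il17a difference was not tested.

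Tnfsf11, the gene of RANKL, was high in the small intestine on 4 of 5 arrays and low in lung and blood. The small intestine values were 3.05, 2.61, 2.56, 0.38 and 2.16, all well above background. The blood values were -0.26, -0.54, -0.35, -0.11 and 0.96, with replicates 3 to 5 well above background. Small intestine 4 lay below blood 5, and on each of the 5 slides the small intestine exceeded blood. The means were 2.15 ± 1.04 (SD, n = 5) and -0.06 ± 0.59 (SD, n = 5), a difference of 2.21 with a 95% interval of 0.85 to 3.57 (limma, adjusted p = 0.0382). Without liver 5 and small intestine 5 it was 2.21 (adjusted p = 0.00979). The call was lost without any 1 blood array (adjusted p of 0.0555 to 0.0833), without small intestine 1 (0.0827) or 2 (0.104), with median scaling (0.0854), with scaling on always-bright probes (0.0756) and with dim probes kept (0.0732), while the difference stayed between 1.54 and 2.65 in all alternatives.

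Lung resembled blood for Tnfsf11, with 0.41, 0.23, -1.26, -0.41 and 0.06 and a mean of -0.20 ± 0.67 (SD, n = 5). The small intestine exceeded lung by 2.35 ± 0.65 on 5 of 5 slides, a difference that was not called over all 20 arrays (limma, adjusted p = 0.15). It was called without liver 5 (2.35, adjusted p = 0.0418) and without both liver 5 and small intestine 5 (2.34, adjusted p = 0.0278), where 0.708% of all genes were called higher. The liver arrays held 0.89, 1.82, -0.86, 0.84 and 4.05. Liver 5, the liver array with Paneth cell and gut epithelium markers, had the highest Tnfsf11 signal of the 20, and liver 3 was not well above background. The liver SD of 1.79 was wider than that of 99.1% of tested genes, and liver exceeded blood by 1.41 ± 0.65 (limma, adjusted p = 0.997). Lung was below liver on all 5 slides, by -1.55 ± 0.65 (limma, adjusted p = 0.298). Both differences depended on liver 5: without that array lung was below liver by -0.87. Over all alternatives liver exceeded blood by 0.67 to 1.96, and neither difference was called in any of them. The F-test over the 4 sites gave an adjusted p of 0.0817, and the ascending order of the means was lung, blood, liver, small intestine. Dendritic cell markers, some of which T cells also express, summed to 5.52 to 6.46 in blood and 6.96 to 8.81 in the small intestine. In liver they summed to 6.55 to 8.49, with the highest on liver 5. In lung, where Tnfsf11 resembled blood, they summed to 6.78 to 7.86, above the blood range. B and plasma cell markers summed to 1.71 to 2.91 in blood and 2.47 to 3.71 in lung. In liver their sum was 1.68 to 5.09, with the highest on liver 5. On small intestine replicates 1 to 5 it was 5.98, 5.76, 4.82, 4.12 and 2.90. Stromal markers, whose cells can make RANKL too, summed to 0.61 to 1.36 in blood, 0.62 to 1.77 in liver and 1.02 to 2.80 in lung. In the small intestine they summed to 0.41 to 4.75. Their lowest value was on small intestine 5, where Tnfsf11 was 2.16, an array that lacks gut markers and goes against its label. The part of these cells in the Tnfsf11 difference was not tested.

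The 250 bases before the start of Tnfsf11 are shown as those of the other gene that was called. They lie at chr14:78308044-78308293 on the minus strand of GRCm38.p6, from RefSeq, and the capitals mark a GGAAA motif 117 bases before the start.
Tnfsf11: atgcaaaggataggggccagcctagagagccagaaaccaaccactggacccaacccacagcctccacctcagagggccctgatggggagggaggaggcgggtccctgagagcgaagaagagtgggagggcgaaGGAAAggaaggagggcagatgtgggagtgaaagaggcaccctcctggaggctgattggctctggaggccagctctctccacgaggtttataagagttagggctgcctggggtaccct
TGANTCA and TATAAA have no match in this window.

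Tnf was dim in every site and lowest in blood. The blood values were -0.74, -0.90, -1.96, -1.66 and -1.24, with 0 of 5 arrays well above background, so blood gives only a bound. The small intestine held 0.56, 1.16, -1.07, -0.38 and -1.25, with replicates 1, 2 and 5 well above background. Replicates 1 and 2 were above every other array of the 20, and replicates 3 and 5 fell within the blood range. The liver values were -0.76, -0.77, -0.27, -0.68 and -0.84, with 4 of 5 well above background, and the lung values -0.17, -0.84, -0.60, -0.39 and -0.76, with 2 of 5. Against the dimmest probe well above background on each blood array, the mean of the 5 small intestine arrays was 1.81-fold higher and that of the 5 liver arrays 1.31-fold higher. These folds were not tested. The means take in the arrays on which Tnf itself was not well above background, so the folds are not firm minimums. As measured, liver exceeded blood by 0.64 ± 0.37 (limma, adjusted p = 0.997). The small intestine exceeded blood by 1.11 ± 0.37 on 4 of 5 slides (limma, adjusted p = 0.0574). Without small intestine 2 the difference was 0.77 (adjusted p = 0.175). It passed the threshold with the slide as a block (adjusted p = 0.0452), without small intestine 3 (1.32, adjusted p = 0.0234), without small intestine 5 (1.37, adjusted p = 0.0137) and without liver 5 and small intestine 5 (1.37, adjusted p = 0.0141).

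Small intestine 1 and 2 were also the arrays with the most monocyte and macrophage signal. Of 14 such markers 12 had a probe, and 10 of them were well above background on at least 1 small intestine array, against 3 in blood, 4 in liver and 6 in lung. The summed log2 signal was 7.02 and 7.40 on small intestine 1 and 2, and 3.46 to 4.75 on the other 3. It ran from 4.05 to 5.16 in blood, 3.96 to 5.55 in liver and 4.16 to 5.12 in lung. Csf1r, the receptor that defines the macrophage lineage, had 5.28 and 5.77 on those arrays, and Cd14, a monocyte co-receptor for endotoxin, had 4.58 and 4.90. Macrophages are a main source of TNF, and their part in the Tnf values was not tested.

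The 250 bases before the start of Tnf are shown for the motif count. They lie at chr17:35202008-35202257 on the minus strand of GRCm38.p6, from RefSeq, and the capitals mark 3 GGAAA motifs, read here as TTTCC on the other strand, at 181, 77 and 54 bases before the start and a TATAAA box at 29.
Tnf: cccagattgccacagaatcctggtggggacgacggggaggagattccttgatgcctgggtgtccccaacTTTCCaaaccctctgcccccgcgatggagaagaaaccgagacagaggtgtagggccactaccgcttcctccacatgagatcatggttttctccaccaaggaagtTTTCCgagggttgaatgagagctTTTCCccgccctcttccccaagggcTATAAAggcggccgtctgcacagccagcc
TGANTCA has no match in this window.

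**Figure D3:**
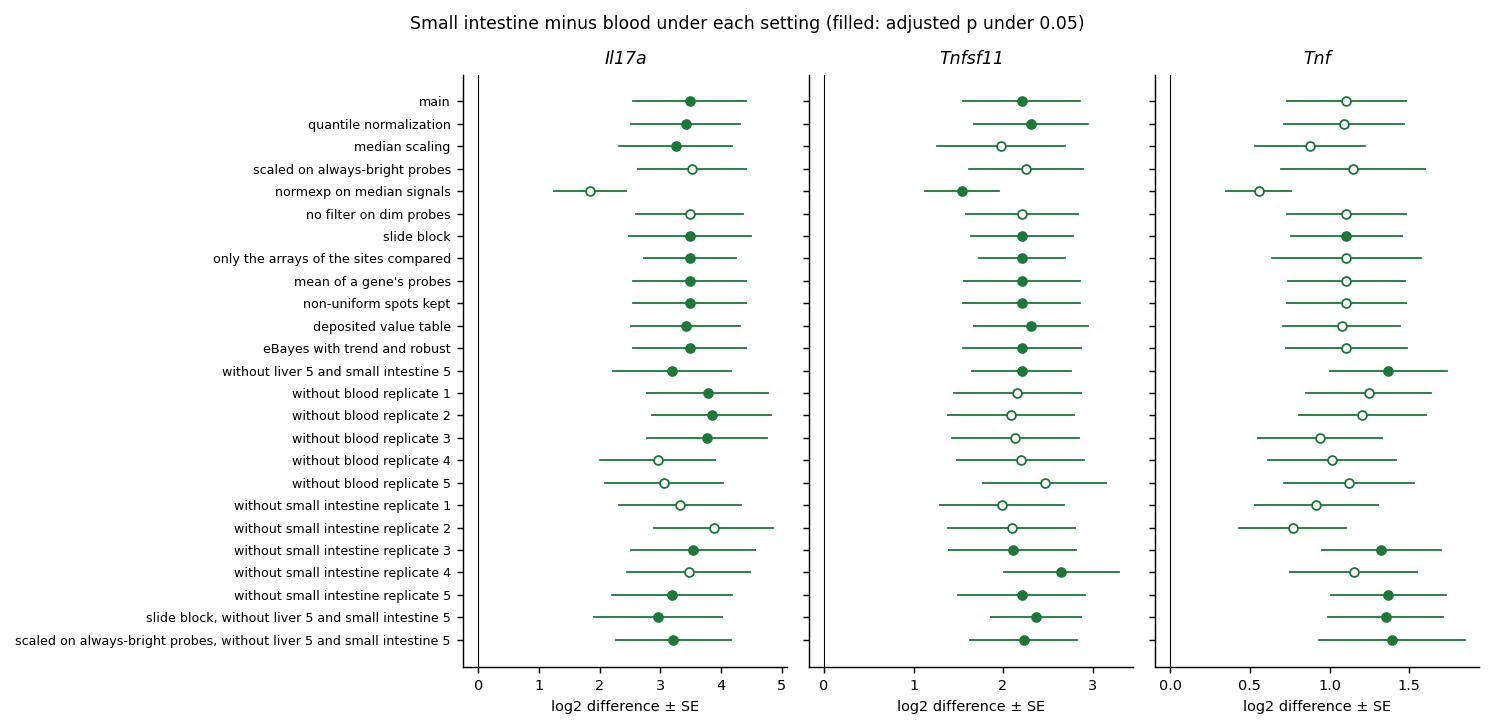
Log2 difference between small intestine and blood ± SE (horizontal axis) for Il17a, Tnfsf11 and Tnf with all 20 arrays ("main") and under the alternatives named on the vertical axis, leaving out the liver and lung arrays one at a time not shown. Filled points passed an adjusted p of 0.05. All estimates are above 0, from 1.85 to 3.87 for Il17a, from 1.54 to 2.65 for Tnfsf11 and from 0.56 to 1.39 for Tnf.

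Ifng was well above background on 20 of 20 arrays, and no site stood apart. The blood values were 3.97, 5.19, 4.57, 2.57 and 3.39, and the lung values 5.43, 5.62, 4.82, 3.48 and 4.15. Lung exceeded blood on 5 of 5 slides by 0.76 ± 0.53, with a 95% interval of -0.34 to 1.87 (limma, adjusted p = 0.28). The small intestine held 4.86, 4.39, 5.71, 2.49 and 4.18, which spans both the lowest and the highest Ifng signal of the 20 arrays. The liver values were 4.17, 4.36, 4.28, 4.50 and 4.46. Their SD of 0.13 was narrower than that of most genes, at the 3.2 percentile of the tested genes in liver, whereas the blood SD of 1.02 was at the 95 percentile in blood. Ascending by mean, the sites ran from blood (3.94) through small intestine (4.32) and liver (4.36) to lung (4.70), each overlapping the next. The intervals of all 6 differences include 0, and run at most to -1.48 and 1.87 on the log2 scale.

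Lta, the gene of lymphotoxin alpha, was near the 75th percentile in all sites. Blood held 0.04, 0.63, 0.00, -0.17 and 1.43, liver 1.02, 1.53, 0.36, 0.30 and -0.08, lung 0.46, 0.48, -0.11, -1.17 and 0.51, and the small intestine 0.42, -0.01, 0.47, -0.28 and 0.90. The sites overlapped throughout. The widest of the differences was lung below liver, by -0.59 ± 0.38 (limma, adjusted p = 0.377). The small intestine differed from blood by -0.08, with a 95% interval of -0.88 to 0.72.

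Fasl, the gene of Fas ligand, was well above background on 20 of 20 arrays and differed more within sites than between them. Blood held 1.76, 1.70, 2.11, 0.89 and 2.55, with a mean of 1.80 ± 0.61 (SD, n = 5), and liver held 2.28, 1.16, 1.75, 2.74 and 2.76, with a mean of 2.14 ± 0.69 (SD, n = 5). Lung held 2.17, 1.99, 1.76, 0.44 and 1.00, with a mean of 1.47 ± 0.73 (SD, n = 5). The small intestine had the widest spread, at 2.04, 0.48, 2.66, 0.58 and 3.28, with a mean of 1.81 ± 1.25 (SD, n = 5). The small intestine differed from blood by 0.01, with a 95% interval of -1.05 to 1.06 (limma, adjusted p = 0.993). A change of either sign up to about that size is not excluded. The 3 arrays with the least Fasl, lung 4 and small intestine 2 and 4, had summed CD8 identity signals of 8.65, 7.91 and 7.77, beside 8.55 to 9.71 on the other 17 arrays. The small intestine arrays with the most Fasl, replicates 5 and 3, had 9.26 and 9.71. Whether the share of CD8 T cells in a sample bears on its Fasl signal was not tested.

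**Figure D4:**
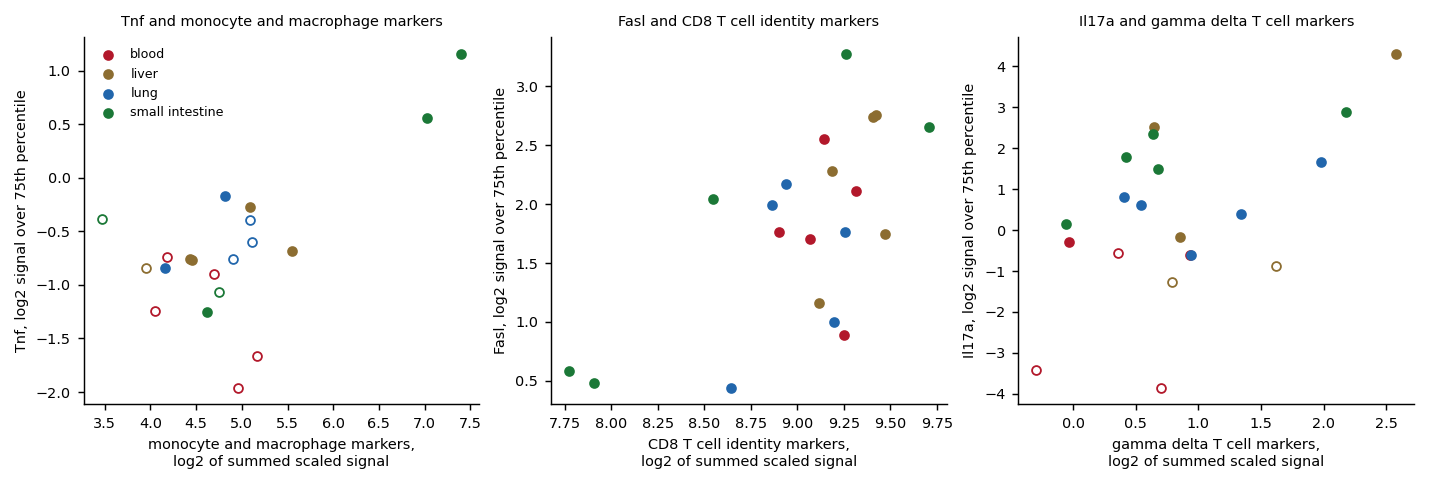
Log2 signal of Tnf, Fasl and Il17a (vertical axes) against the log2 of the summed scaled signal of marker genes (horizontal axes) on the 20 arrays, coloured by site; open points were not well above background. Small intestine 1 and 2 stand alone at the upper right for Tnf, at 7.02 and 7.40 on the monocyte and macrophage axis, and the 3 lowest Fasl points lie at 8.65 or less on the CD8 identity axis. For Il17a the highest point is liver 4, at 2.58 on the gamma delta T cell axis.

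Of the 4 genes that were not tested, Tnfsf10, the TRAIL gene, was well above background on single arrays of every site. Those were blood 3 (-0.89) and 5 (1.51), liver 4 (0.04), lung 2 (1.15) and small intestine 5 (-0.07), and the lowest of the 20 values was -2.90. Csf2 was well above background on liver 5 (0.04) and small intestine 5 (-1.33), the 2 arrays whose gut markers go against their labels, and the other 18 values ran down to -3.72. Il2 ran from -4.32 to -2.22 and Il10 from -4.10 to -2.07 over all 20 arrays, none of them well above background. At these signals a difference between sites was not detectable for Il2 and Il10.

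The genes around these ligands were counted in the same tests against blood. Of 27 transcription factors of cytokine genes 17 were tested. In lung 2 of the 17 rose, beside 0.521% of all tested genes. In the small intestine 2 rose, beside 0.919% of all genes, and 2 fell, a share close to the 9.94% of all genes that were called lower. Fos and Jun, the subunits of AP-1, rose in lung by 4.40 ± 0.87 (limma, adjusted p = 0.0202) and 1.63 ± 0.35 (0.0296). They rose in the small intestine by 3.46 ± 0.87 (0.0233) and 1.32 ± 0.35 (0.0268). Only 2 of 5 blood arrays had Fos well above background, and with dim values raised to each array's floor its differences were 3.51 in lung and 2.57 in the small intestine. Nfatc2, a factor that carries the calcium signal of the T cell receptor to cytokine genes, fell in the small intestine by 2.58 ± 0.67 (0.0247), and Irf4, a factor of T cell activation, fell by 2.31 ± 0.67 (0.0367). Nfatc2 was well above background on 1 and Irf4 on 2 of 5 small intestine arrays, and with raised values the differences were -1.39 and -1.82. The Fos and Jun calls in lung were lost with the always-bright scaling and without any 1 of blood 3, 4 or 5 or lung 4 or 5, and that of Jun also without lung 2. Those of Fos, Jun, Nfatc2 and Irf4 in the small intestine were lost with the always-bright scaling and without small intestine 2, among other arrays. Tbx21, the gene of T-bet, which drives Ifng, had site means of 5.42 to 5.87 and was not called. The median difference of the 17 factors from blood was 0.32 in liver, -0.35 in lung and 0.33 in the small intestine.

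Genes that the ligands induce were called one at a time, and their falls are read beside the 9.94% of all genes called lower in the small intestine and their rises beside the 0.919% called higher. Of 15 tested interferon gamma induced genes 2 rose in the small intestine: Cxcl10, a chemokine for T cells, by 4.11 ± 0.79 (limma, adjusted p = 0.0157) and Cd274, the gene of PD-L1, by 0.81 ± 0.25 (0.0448). Cxcl10 was well above background on 1 of 5 blood arrays, and with raised values its difference was 3.32. Myeloid cells make both as well, and the part of the monocyte and macrophage signal of small intestine 1 and 2 was not tested. Of 10 tested TNF and NF-kB induced genes 1 rose, Nfkbie, an inhibitor of NF-kB, by 2.13 ± 0.54 (0.0233). Of 11 tested IL-2 and STAT5 induced genes Cish, a feedback inhibitor of cytokine receptors, rose by 3.16 ± 0.94 (0.0382; 2.36 with the values of 2 dim blood arrays raised) and Ccnd3, a cell cycle cyclin, fell by 1.94 ± 0.40 (0.0169). The medians of these lists in the small intestine were 0.01, 0.78 and -0.01, beside -0.36 over all tested genes. Of 10 tested receptors for cytokines that induce the ligands, Il18r1, a chain of the interleukin 18 receptor, fell by 2.22 ± 0.64 (0.0349), and of 8 tested genes of death receptor signalling Tradd, the adaptor of TNF receptor 1, fell by 1.30 ± 0.36 (0.0302). Of 7 tested other TNF family ligands, 7 tested other lymphocyte cytokines and 6 tested regulators of cytokine message stability 0 were called in any site. Of all these lists 0 genes were called in liver, and in lung only Fos and Jun. In the small intestine the lists held 11 called genes. Without small intestine 2, 0 of the 11 were called, as were 0 of all genes, and with the always-bright scaling 1 was (Cxcl10), whereas all 11 were called without liver 5 and small intestine 5.

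Receptors of the ligands were tested for 11 of 18 genes and 0 were called against blood. Ifngr1, the ligand-binding chain for interferon gamma, had means of 6.13, 6.55, 5.97 and 6.35 in blood, liver, lung and small intestine, the order kept for the other receptors. Il2rb, the beta chain of the interleukin 2 receptor, had 6.84, 6.95, 6.73 and 6.42, and Il2ra, its inducible alpha chain, had 2.78, 1.67, 1.61 and 1.74. For Il2rg, the common gamma chain, the means were 0.74, 1.38, -1.21 and -0.41. Tnfrsf1a, the gene of TNF receptor 1, had 0.41, 0.17, 1.30 and 1.08, and Tnfrsf1b, that of TNF receptor 2, had 2.55, 2.65, 2.12 and 2.28. Fas, the receptor of Fas ligand, had -0.34, 0.96, 0.57 and 0.86 and was above blood by 1.30 ± 0.72 in liver (limma, adjusted p = 0.997) and 1.20 ± 0.72 in the small intestine (0.233). Il10ra, the ligand-binding chain for interleukin 10, had 0.75, 0.43, 0.08 and -0.07. The chains for GM-CSF, Csf2ra and Csf2rb, and Ltbr, the lymphotoxin beta receptor, are expressed by myeloid and stromal cells. Their SDs in the small intestine were 3.00, 3.59 and 2.86, each wider than the gene's own difference from blood there (1.47, 0.86 and 2.37).

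For each tested ligand the 5 genes with the most similar pattern over the 20 arrays were listed by Pearson's r. These coefficients describe 20 arrays that share sites and slides, and carry no p. Tnfsf11 ran closest to Samsn1, an adaptor of lymphocytes (r = 0.93, and 0.92 within sites), Relb, an NF-kB subunit (0.91 and 0.84), Smim3 (0.91 and 0.84), Herpud1, a gene of the endoplasmic reticulum stress response (0.91 and 0.84), and Nfkbie (0.90 and 0.82). Liver 5 was the highest or second highest of the 20 arrays for all 5, and was the highest for Tnfsf11. Ifng ran closest to Cd69, an early activation marker (0.90 and 0.93), followed by Gadd45b (0.73), Klf6 (0.69), Gtf2f1 (0.69) and Ppp1r16b (0.69). Tnf ran closest to Fes (0.89), Pde1b (0.87), Cxcl1, a neutrophil chemokine (0.85), Cd14 (0.84) and Emilin2 (0.80), and all 5 were highest on small intestine 1 and 2. Fasl ran closest to Selenot (0.85) and Lta to Jpt1 (0.81), and for Il17a the highest was Map3k14, the kinase NIK (0.74, and 0.60 within sites). Among the 15 pairs of tested ligands the highest coefficients were 0.47 for Lta with Fasl and 0.46 for Ifng with Fasl, and that for Il17a with Tnfsf11, the genes called in the same comparison, was 0.37, or 0.06 within sites.

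**Figure D5:**
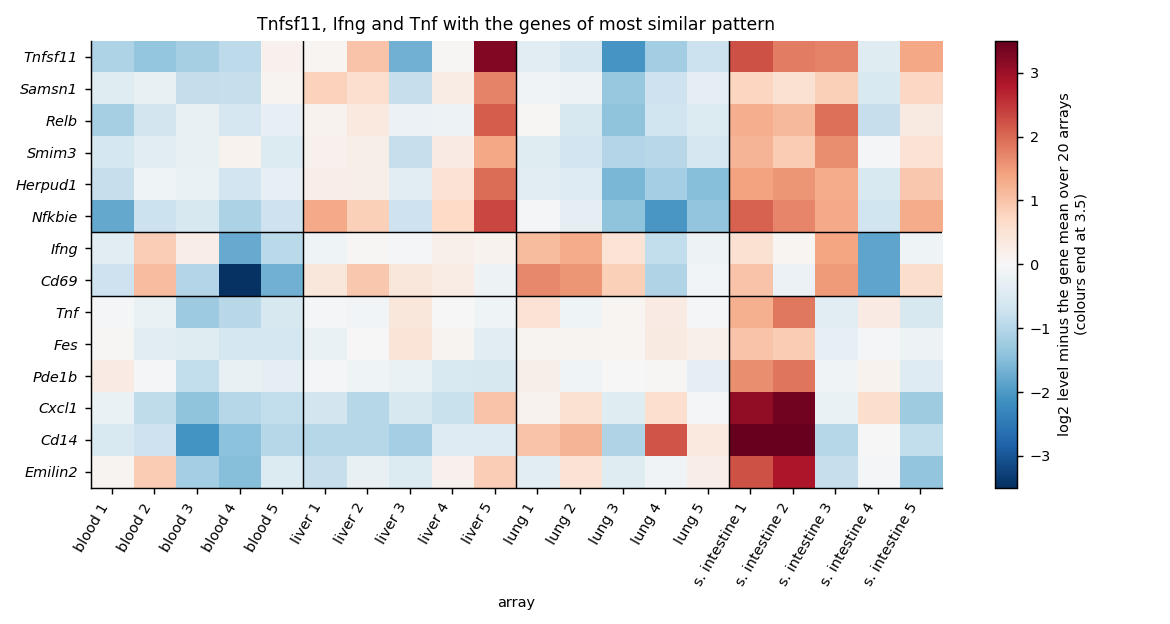
Log2 level of Tnfsf11, Ifng and Tnf and of genes with similar pattern, each minus its own mean over the 20 arrays (colour), for each array (horizontal axis) and gene (vertical axis). For Ifng only the closest gene, Cd69, is drawn. Tnfsf11 and its 5 genes are red on liver 5 and on small intestine 1 to 3, and Tnf and its 5 genes are red on small intestine 1 and 2.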

How the data were processed

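Amplified, Cy3-labelled RNA was hybridised to 1-colour Agilent mouse arrays. Per the file headers, the signal intensity is background-subtracted processed signal from Feature Extraction 11.0.1.1, while the submitters' processing notes give version 10.7, and Partek. The authors' deposited value table, on a log2 scale, equals quantile-normalized processed signal (median absolute difference 6.31e-05, column median 8.05) and was an alternative. Of 39429 probes 27508 matched 1 RefSeq symbol (GRCm38.p6). The 24 non-uniform spots were left out. From the intensity, log2 values minus each array's 75th percentile (823 to 2848) were computed, with the brightest probe per gene, and tested in limma 3.58.1 (R 4.3.3), 1 coefficient per site, two-sided. The procedure was tested on simulated data. The ligands and lists were chosen with earlier results of these data known. Named were all 10 ligands, called members of the related lists (at most 4 a list), tested receptors and the 5 genes of most similar pattern. The normexp alternative used median signals, offset 50, since the files hold no mean signal. Per the file headers, the 5 slides carried all 4 sites each and match the replicate numbers. Of the 30 same-slide pairs 18 had residual correlations over 0.1 (median 0.16, range -0.37 to 0.56), against a median of -0.05 for the other 120 pairs. Array number limits the precision.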

Additional observations from a re-analysis of the deposited data

Results flagged for a closer look

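In 40 groups of 5 arrays (10 genes in 4 sites), 4 had an array apart from the others by Dixon's test, whose critical value for 5 arrays is 0.71, and chance gives about 1 in 20 groups. Tnf was -0.27 on liver 3, with the nearest liver array at -0.68. Tnfsf11 was 0.96 on blood 5, with the nearest blood array at -0.11. Tnfsf10 was -0.07 on small intestine 5, with the nearest array at -2.36. Il10 was -4.10 on small intestine 5, with the nearest at -2.89, and no array of that group was well above background for Il10.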

How the results depend on the processing

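The count of ligand genes called for small intestine against blood, 2 over all arrays, was 1 with median scaling (Il17a) and with normexp on median signals (Tnfsf11). It was 0 with the scaling on always-bright probes, with dim probes kept, and where testing was limited to genes above background on every array, which tests neither gene. Leaving out 1 array in turn gave 0 to 3 for that comparison, with 0 without blood 4, blood 5, small intestine 1 or small intestine 2, and 3 (with Tnf) without small intestine 3 or 5. For small intestine against lung and for the F-test the count of 0 became 1 (Tnfsf11) without liver 5 and small intestine 5, chosen after seeing the data, also with the slide block or the always-bright scaling added, and ran from 0 to 1 when 1 array was left out, with 1 without liver 5. The labels' replicate numbers equal the slide. As the numbers mark a shared slide, the fit with this replicate block gave adjusted p of 0.0355 for Il17a, 0.0256 for Tnfsf11 and 0.0452 for Tnf in small intestine against blood, and changed no other call among the ligands than that of Tnf. A fit of only the sites compared has no F-test over the 4 sites. No called difference changed sign. Counts over all genes moved more: 875 genes called for small intestine against blood became 19 with the always-bright scaling, 327 with only those 2 sites in the fit, 255 with dim probes kept, 2117 without liver 5 and small intestine 5, 0 without small intestine 2 and 2033 without small intestine 5. For lung against blood 66 became 0 to 558, and 846 without lung 1. For lung against liver 23 became 0 to 65, for small intestine against liver 0 became 1310 and for small intestine against lung 12 became 212 without liver 5 and small intestine 5. The split of 1 higher and 11 lower for small intestine against lung became 10 and 17 with quantile normalization and 12 and 8 with the always-bright scaling, and that of 20 higher and 3 lower for lung against liver became 12 and 0 with median scaling. The cause of these changes was not tested. Dim signal limits Tnf in blood and the 4 untested genes.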
